A study of Caenorhabditis elegans with 12 samples.

Results

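The pdr-1 mutant (strain VC1024, allele gk448) lacks function of the worm orthologue of the human ubiquitin ligase parkin, and its microRNAs were compared with those of the wild-type Caenorhabditis elegans strain N2. The members are the 4 arrays that the labels assign to this mutant, of 12 arrays in the series, each from a separate worm population. Per the labels, every array carried mutant RNA in its second channel and N2 RNA in its first, so N2 was measured only as the partner of the mutant. No file says which of the scanner's 2 signals belongs to which dye, and below the second signal is called the mutant channel by the order in the labels. All worms were synchronized at larval stage 4, kept at 20 °C and fed OP50 bacteria, and small RNA below 200 nt was labelled. Other arrays held a strain with a human alpha-synuclein A53T transgene, whose promoter the labels do not give. The rest held a cat-1 mutant (CB1111, allele e1111) that lacks a monoamine transporter, and both strains were likewise set against N2. Each strain is a single line, and the labels mention no rescue or outcrossing of VC1024. The array reads small RNA only, so the loss of pdr-1 itself could not be checked.

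Parkin attaches ubiquitin to proteins, among them proteins on the surface of damaged mitochondria, and its loss causes an early-onset familial form of Parkinson's disease in people. MicroRNAs are short RNAs that pair with messenger RNAs and lower their output. In worm larvae, lin-4 and the let-7 family time the passage from one stage to the next, and other microRNAs mark muscle, neurons, glia or gut, or act in stress responses and ageing.

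Of the 114 C. elegans probes on the array, 57 gave a signal in the mutant channel on at least 1 of the 4 arrays, 55 gave one in the N2 channel, and 57 gave none in either. A signal here means a scanner intensity above 0. The mutant and N2 channels detected almost the same number of microRNAs on each array. These were 15 and 14 on replicate 1, 23 and 22 on replicate 2, 55 and 54 on replicate 3, and 32 in both channels on replicate 4. The mutant channel had more on 3 arrays and the same number on 1, with a mean difference of 0.75 microRNAs. An exact two-sided sign-flip permutation test over the 4 arrays gave p = 0.25. The smallest p that 4 arrays allow rounds to 0.13, so this test could not decide whether the counts differ. Replicates 1 and 2 thus held far fewer measured microRNAs than replicate 3, which alone measured 10 of the microRNAs reported here.

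Only 3 microRNAs had a signal in 1 channel and not in the other, each time in the channel taken as the mutant. miR-58, a member of an abundant family related to Drosophila bantam, had a mutant signal and no N2 signal on replicate 1, where 2 of its 3 spots were above 0, and had both signals on the other 3 arrays. miR-60, which is known from the intestine, was above 0 at a single mutant spot of replicate 3. miR-265 was above 0 at 3 mutant spots of replicate 2 and nowhere else among the pdr-1 arrays. No fold is given for miR-60 and miR-265, as neither had a ratio. The mutant channel was also the brighter one throughout, which bears on these 3 cases. The median unnormalized log2 ratio of mutant over N2 was 1.31, 2.16, 2.49 and 1.60 on replicates 1 to 4, or 2.47-fold to 5.61-fold, and the part of dye or labelling in it was not tested. With the arrays not normalized, the median over the tested microRNAs was 2.08, and all values below are relative to the other microRNAs on the same array.

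The larval stage in the labels was set against microRNAs known to mark stages. All 4 probed members of the let-7 family, which are abundant in late larvae, gave a signal, and let-7, miR-48 and miR-84 did so in both channels of all 4 arrays. The embryonic miR-35 family has 8 members on the array, and 1 of them gave any signal, miR-35 at 2 spots of replicate 3. The muscle microRNA miR-1 was measured on all 4 arrays, miR-228 of glia and seam cells on 2 and the neuronal miR-124 on 1, while lsy-6, which acts in a single taste neuron, was at 0 on all 4. In these whole-worm samples, fewer cells of a type and less RNA per cell cannot be told apart.

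Probes altered on purpose (with changed, reversed or shuffled sequence) stayed dark: 1 of 228 such spots gave a mutant signal on replicate 1 and 0 did on the other 3 arrays. Blank spots gave 3 signals of 1059 on replicate 2 and 0 on the others. The 3 spots of a probe agreed better than the arrays did. The SD of log2 ratios among spots of 1 probe was 0.18 to 0.44 per array, against 0.47 between arrays for the mean of a probe. The channels correlated at 0.407 to 0.721 across spots, as a description over spots that share an array.

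The direction of the ratios is not settled. All signs take the ratio as second over first signal, read as mutant over N2. The log2 ratios of replicates 1 and 4, which had the same dye orientation, correlated at -0.564 over 14 microRNAs, though 8 of the 14 lay on the same side of 0. miR-252, at -1.62 on replicate 1 and 0.64 on replicate 4, and miR-51, at -0.42 and 1.02, lay farthest from the rest, and both rested on 1 spot on replicate 1. Without miR-252 the correlation was -0.352, without miR-51 it was -0.676, and without both it was 0.01 over 12 microRNAs. With arrays centred on their median in place of the intensity-dependent (loess) normalization it was -0.219. Replicates 3 and 4 gave the closest pair, at 0.422 over 31 microRNAs, with 22 of them on the same side of 0. The remaining pairs lay between 0.039 and 0.191. Values with the sign of replicate 1 or of replicate 4 turned are therefore given for the means that change sign, and for some others. With replicate 4 turned, 11 of the 48 microRNAs changed sign, and with replicate 1 turned 1 did, miR-252. Among the 11, miR-71 went from 0.36 to -0.71, miR-87 from 0.22 to -0.28 and miR-2 from -0.12 to 0.36. miR-53 went from -0.09 to 0.31, miR-79 from -0.12 to 0.25 and miR-55 from 0.14 to -0.03. miR-72 went from -0.02 to 0.06 and miR-44/45 from -0.09 to 0.005, and miR-241, miR-230 and miR-51 are given below.

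**Figure D1:**
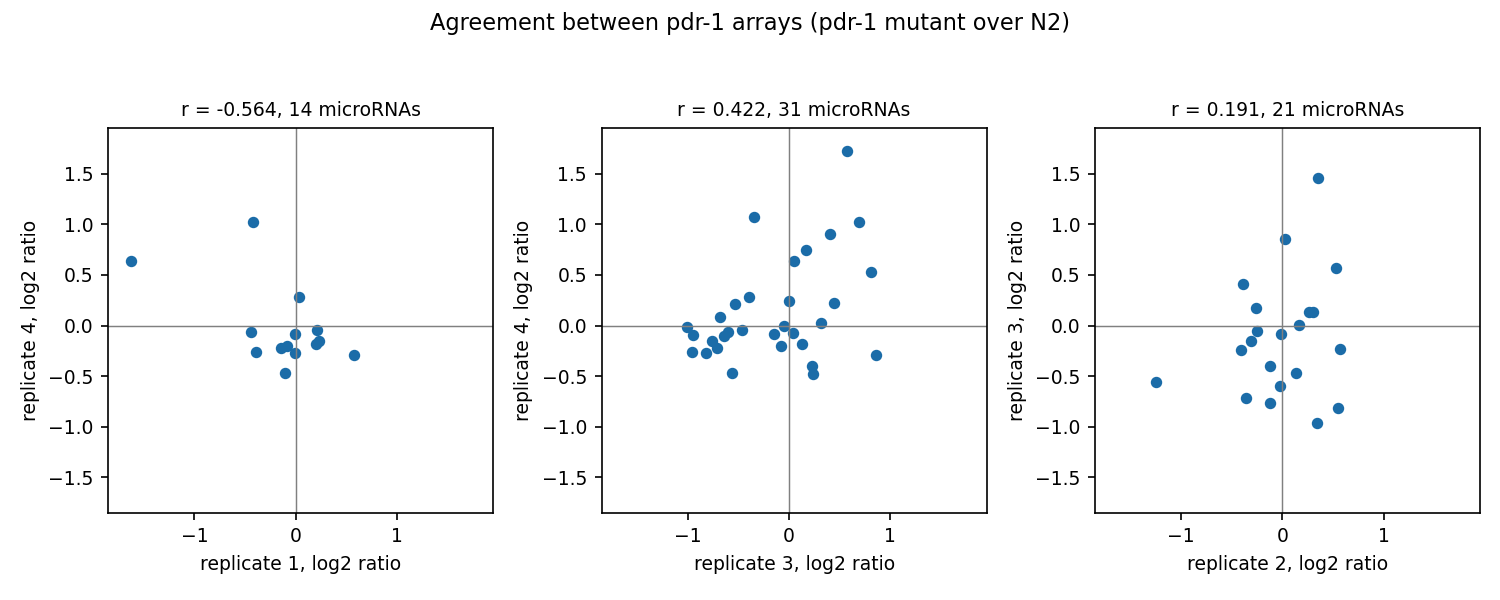
Log2 ratios of pdr-1 mutant over N2 on pairs of pdr-1 arrays, 1 point per microRNA measured on both, with the Pearson correlation and the number of microRNAs above each panel. Replicates 1 and 4 correlate negatively (r = -0.564, 14 microRNAs), though 8 of the 14 lie on the same side of 0. miR-252 and miR-51 lie at the upper left, and r = 0.01 without both. Replicates 3 and 4 run together (r = 0.422, 31 microRNAs) and replicates 2 and 3 weakly so (r = 0.191, 21 microRNAs).

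No microRNA passed the test between the pdr-1 mutant and N2. Of the 48 that passed the filter on detection and had a ratio on at least 1 pdr-1 array, 0 passed at an adjusted p of 0.05 by limma (0% of all tested). Before adjustment 2 of them lay below 0.05 (4.17%), miR-241 and miR-77. Their means split evenly, 24 above 0 and 24 below, with a median of -0.003. They ranged from -0.60 for miR-48 to 1.15 for miR-241. Of these 48, 12 were measured on 4 arrays, 5 on 3, 21 on 2 and 10 on 1, and the 2 other probes past the filter, miR-60 and miR-244, had no ratio on these arrays. The shared SD of 0.64 gives an SE of 0.32 for a mean over 4 arrays and 0.45 over 2. A change had to exceed 0.63 on the log2 scale, or 1.55-fold, to leave 0 outside the 95% interval with 4 arrays, and 0.90 with 2. Fitted without the other strains, whose spread partly sets this error, the pdr-1 arrays also gave 0 calls, and 4 microRNAs had an unadjusted p under 0.05. The smallest adjusted p was then 0.0737, for miR-241.

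**Figure D2:**
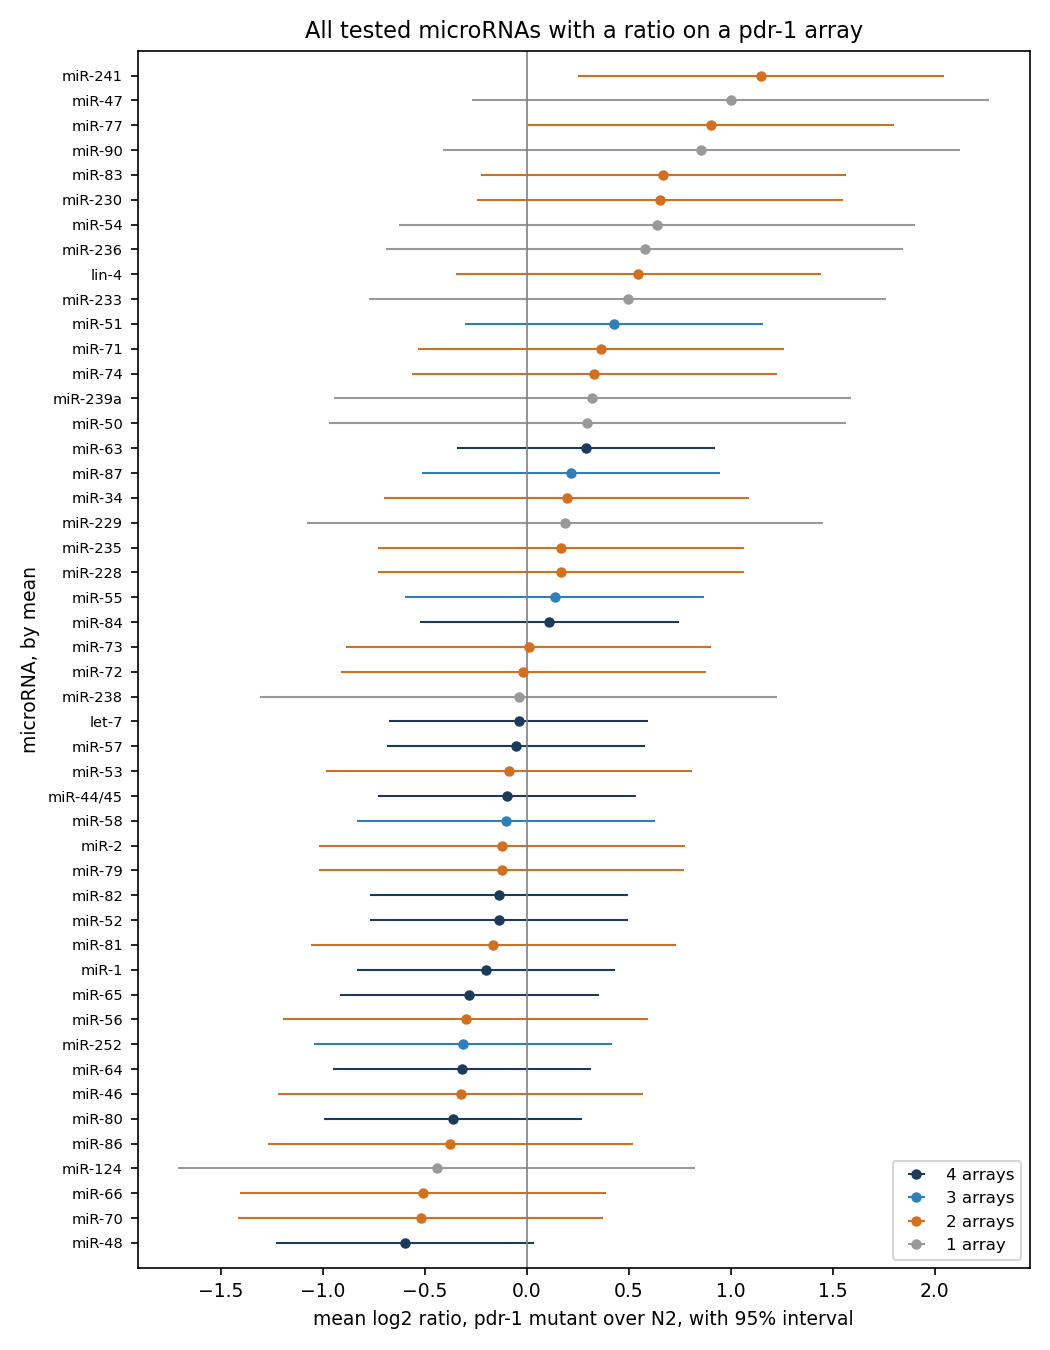
Mean log2 ratio of pdr-1 mutant over N2 (x axis) with its 95% interval for the 48 tested microRNAs (y axis), coloured by the number of arrays behind it. The means run from -0.60 for miR-48 to 1.15 for miR-241, and the intervals of miR-241 and miR-77 alone leave out 0 before adjustment, both resting on 2 arrays.

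For the 12 microRNAs measured on all 4 arrays, the intervals bound a change in the loess-normalized ratios only. They leave out the uncertainty of the loess curve, which on replicate 1 rested on at most 28 C. elegans spots. The 95% intervals of 11 of the 12 stayed within a log2 change of 1 in either direction, and also did so when the pdr-1 arrays were fitted alone. The exception was miR-48, whose interval ran from -1.23 to 0.04. None of the 12 lay above 0 on all 4 arrays and 5 lay below 0 on all 4 (41.7% on the same side on all 4): miR-48, miR-80, miR-65, miR-52 and miR-44/45. With replicate 4 turned none of the 12 lay below 0 on all 4 arrays and 2 lay above, miR-63 and miR-84, and with replicate 1 turned 1 lay below, miR-1. Turning the sign of an array takes any microRNA on the same side on all 4 off that side by arithmetic. These counts therefore do not test how firm the 5 are. With median centring, miR-48 and miR-52 again lay below 0 on all 4 arrays and the other 3 did not. The highest single value among the 12 was 0.85, for miR-63 on replicate 3.

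**Figure D3:**
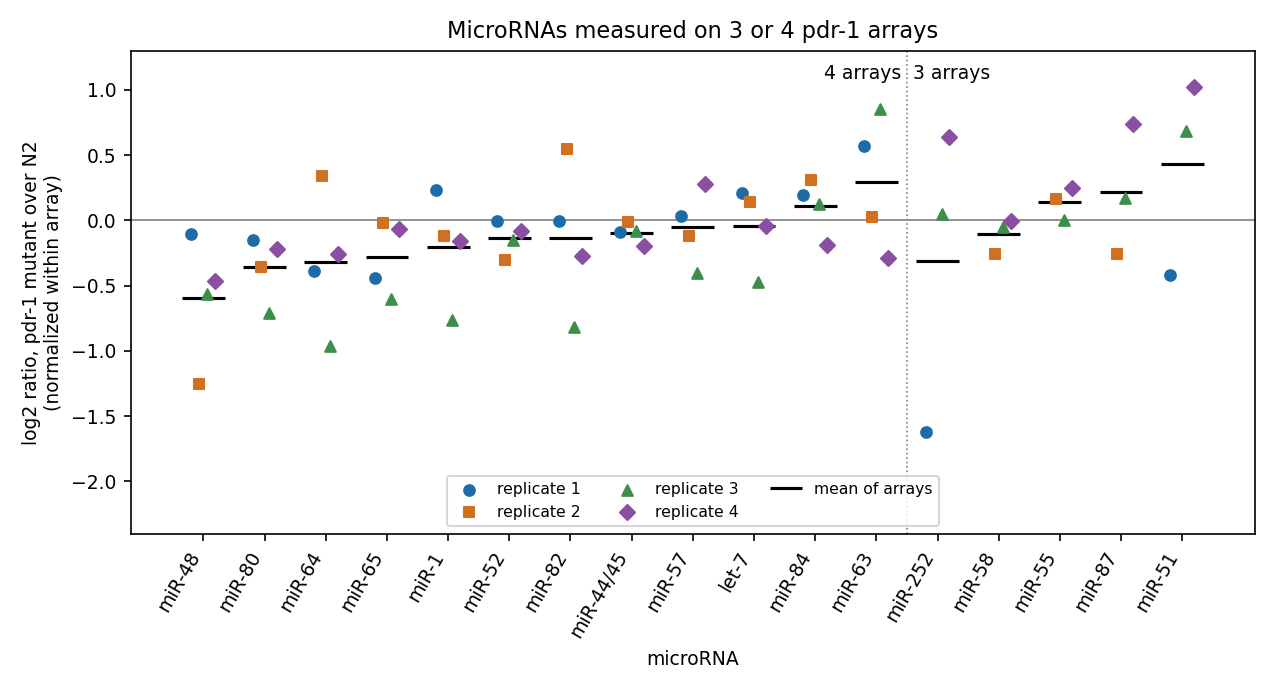
Log2 ratio of pdr-1 mutant over N2 on each array (points, by replicate) and the mean (bar) for the 17 microRNAs measured on 3 or 4 pdr-1 arrays, with those on 4 arrays at the left. miR-48 lies below 0 on all 4 arrays with replicate 2 lowest at -1.25, and miR-252 spans from -1.62 on replicate 1 to 0.64 on replicate 4.

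Among the timing microRNAs, let-7, which with its target lin-41 controls the passage to the adult, stood at 0.21, 0.14, -0.47 and -0.04 on replicates 1 to 4. Those values straddle 0, and the mean was -0.04 ± 0.32 SE (95% interval -0.67 to 0.59, adjusted p = 0.962). As folds of mutant over N2 the interval ran from 0.627 to 1.51. The mean was 0.10 without replicate 3, and replicate 1 rested on 1 of the 3 spots of the probe.

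miR-48, which acts with miR-84 and miR-241 at the second larval stage by lowering the transcription factor HBL-1, stood at -0.11, -1.25, -0.56 and -0.47. Replicate 2 was the lowest and replicate 1 lay close to 0. The mean of -0.60 ± 0.32, or 1.51-fold lower, did not pass (unadjusted p = 0.0647, adjusted p = 0.902). It was -0.38 without replicate 2 and -0.36 with replicate 4 turned. Under 8 other, partly overlapping ways of normalizing, averaging spots or treating flags it stayed between -0.69 and -0.58.

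miR-84 stood at 0.20, 0.31, 0.13 and -0.19, with a mean of 0.11 (adjusted p = 0.902). The values of 3 arrays were above 0 and that of replicate 4 was below. miR-241, whose gene neighbours that of miR-48, was measured on replicates 3 and 4 alone, at 0.58 and 1.72. Both were above 0, and the mean was 1.15 ± 0.45 (95% interval 0.25 to 2.04), or 2.22-fold higher, with an unadjusted p of 0.0122 and an adjusted p of 0.584. The 2 neighbouring genes therefore had means on opposite sides of 0, as miR-48 stood at -0.56 and -0.47 on the same 2 arrays. With replicate 4 turned, miR-241 stood at -0.57. The mean of miR-241 passed under 1 of the alternatives, the scaling of arrays to a common spread (1.40, adjusted p = 0.0241). With the replicate number as a block in the fit it fell to 0.29 and did not pass.

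lin-4, which ends the first larval stage by lowering lin-14, stood at 0.53 and 0.56 on replicates 2 and 3, the 2 arrays that measured it. The values lay close together, each from 1 spot, and the mean of 0.55 ± 0.45 did not pass (adjusted p = 0.902). Its relative miR-237 gave no signal. Of the 4 let-7 family members 2 had a mean above 0 and 2 below, with 0 past the threshold and a median of 0.04, beside -0.003 over all 48. With replicate 4 turned 1 lay above 0 and the median was -0.19, and with replicate 1 turned the median was -0.07.

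**Figure D4:**
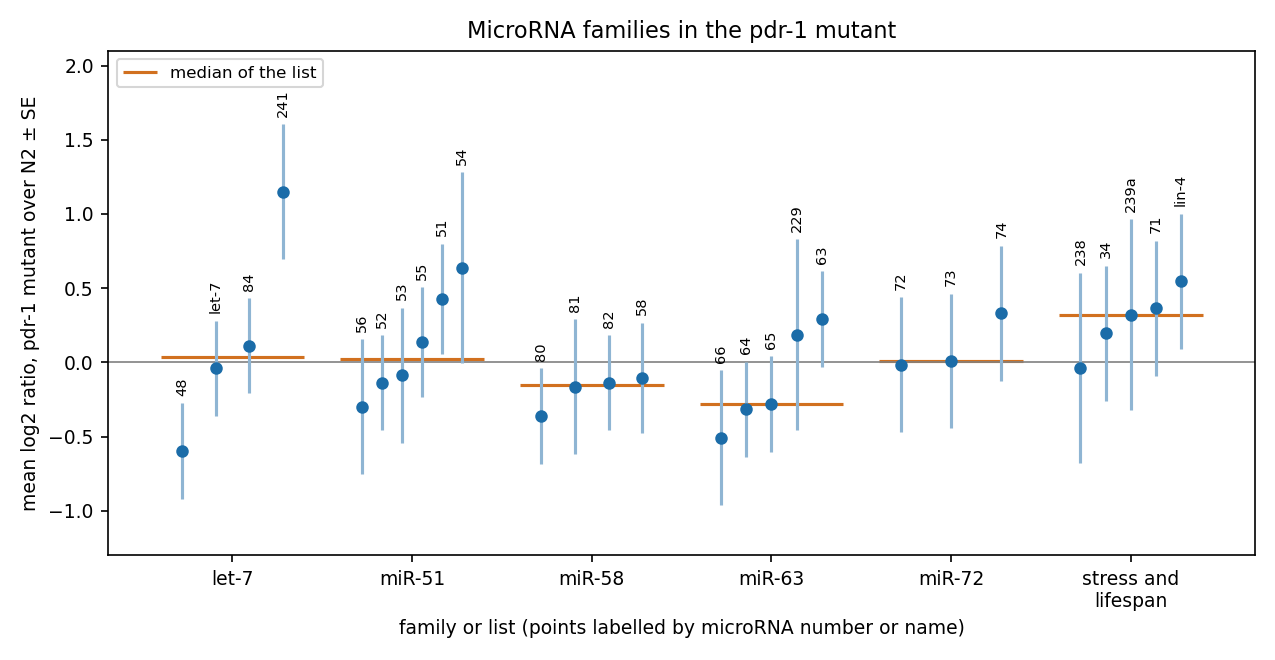
Mean log2 ratio of pdr-1 mutant over N2 with its SE for the measured members of 5 families and of the stress and lifespan list, with the median of each list as a bar. The 4 members of the miR-58 family lie between -0.36 and -0.10, and the let-7 family spans the widest range, from -0.60 for miR-48 to 1.15 for miR-241.

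The miR-58 family, among the most abundant in the worm and known to act on body size and dauer formation, had 4 of 4 means below 0, beside 24 of 48 over all tested, and 0 passed, with a median of -0.15. Under other normalizations the mean of miR-81 reached 0.04 and that of miR-82 reached 0.06, and without replicate 3 they were 0.21 and 0.09. miR-80, linked to the response to food restriction, stood at -0.15, -0.36, -0.71 and -0.22, below 0 on all 4 arrays, with a mean of -0.36 ± 0.32 (95% interval -0.99 to 0.27). With median centring it stood at 0.24 on replicate 1. miR-58 stood at -0.25, -0.05 and -0.003 on replicates 2 to 4, all below 0, with a mean of -0.10. miR-82 varied far more, at -0.004, 0.55, -0.82 and -0.27, and miR-81 stood at -0.53 and 0.21 on replicates 3 and 4. The family mean per array was -0.08, -0.02, -0.53 and -0.07, so replicate 3 carried most of it.

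The miR-63 family, which includes the neighbouring genes of miR-229, miR-64, miR-65 and miR-66, had 3 of 5 means below 0, 2 above and 0 past the threshold, with a median of -0.28. miR-65 stood at -0.44, -0.02, -0.60 and -0.06, below 0 on every array though close to it on replicates 2 and 4. miR-64 stood at -0.39, 0.34, -0.96 and -0.26, with a mean of -0.32 ± 0.32. miR-66 stood at -1.004 and -0.01 on replicates 3 and 4, and miR-229 at 0.19 on replicate 3. On that replicate the members of the cluster were thus spread from -1.004 to 0.19, with miR-64 and miR-66 nearest to each other. miR-63 itself, at 0.57, 0.03, 0.85 and -0.29, had a mean of 0.29 and was above 0 on 3 arrays. With replicate 1 turned, the mean of miR-63 came to 0.01 and that of miR-65 to -0.06, and the family median to -0.06.

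The miR-51 family, needed for embryonic development, gave all 6 of its members, 3 above 0 and 3 below, with a median of 0.03 and 0 past the threshold. With replicate 4 turned 2 lay above 0, with a median of -0.06. miR-52 stood at -0.01, -0.30, -0.15 and -0.08, all below 0 and within a narrow range, with a mean of -0.14 ± 0.32. Centred on the median, the same arrays gave -0.85, -0.48, -0.29 and -0.05, so the normalization moved replicate 1 most. miR-51 stood at -0.42, 0.69 and 1.02 on replicates 1, 3 and 4, with a mean of 0.43 that came to -0.25 with replicate 4 turned and to 0.71 with replicate 1 turned. miR-55 stood at 0.16, 0.003 and 0.25 on replicates 2 to 4, all above 0 and replicate 3 barely so. miR-53 (0.22 and -0.40) and miR-56 (-0.68 and 0.08) split on replicates 3 and 4, and miR-54 stood at 0.64 on replicate 3. The genes of miR-54, miR-55 and miR-56 are neighbours, and on replicate 3 they stood at 0.64, 0.003 and -0.68.

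The miR-72 family gave means of 0.33 for miR-74, 0.01 for miR-73 and -0.02 for miR-72. miR-74 stood at 0.44 and 0.22 on replicates 3 and 4, while miR-73 (-0.39 and 0.41 on replicates 2 and 3) and miR-72 (0.04 and -0.08 on replicates 3 and 4) lay on both sides of 0. The family median was 0.01, with 0 of 3 past the threshold.

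Of the 7 probed stress and lifespan microRNAs, 5 gave a ratio, 4 above 0, 1 below and 0 past the threshold, with a median of 0.32 that came to 0.20 with replicate 4 turned. They gave 0, 2, 5 and 1 ratios on replicates 1 to 4, so replicate 3 carries this list. miR-34, a regulator of the response to DNA damage and a member of a family conserved in mammals, stood at 0.26 and 0.13 on replicates 2 and 3 (mean 0.20 ± 0.45). miR-71, which lengthens life in worms, stood at -0.34 and 1.07 on replicates 3 and 4, on opposite sides of 0, with an SD of 1.00. miR-239a (0.32) and miR-238 (-0.04) were measured on replicate 3 alone, and lin-4, which also affects lifespan, was described above. miR-239b and miR-246 gave no ratio.

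Among tissue markers, miR-1, which acts in muscle and at the neuromuscular junction, stood at 0.23, -0.12, -0.76 and -0.15, with a mean of -0.20 ± 0.32 (95% interval -0.83 to 0.43). The values lay on both sides of 0, with replicate 3 lowest. miR-124, found in sensory neurons, stood at -0.44 on replicate 3, and miR-228 at 0.31 and 0.02 on replicates 3 and 4. miR-57, which patterns the posterior of the embryo, stood at 0.04, -0.12, -0.40 and 0.28, and the probe shared by miR-44 and miR-45, which promote the sperm fate in the germ line, at -0.09, -0.01, -0.08 and -0.20. That last probe had the smallest SD of the 12, 0.08, while with median centring its replicate 1 value was 0.61. It rested on 1 spot on replicates 1, 2 and 3 and on 2 spots on replicate 4.

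Among microRNAs with relatives in other animals, 16 of the 17 listed passed the filter on detection and had a ratio. Of these, 9 lay above 0, 7 below and 0 past the threshold, with a median of 0.17. miR-83, a relative of mammalian miR-29, stood at 0.81 and 0.53 on replicates 3 and 4 (mean 0.67 ± 0.45, adjusted p = 0.902), and came to 0.14 with replicate 4 turned. miR-235, a relative of miR-92 that holds larvae in quiescence when food is absent, stood at 0.57 and -0.23 on replicates 2 and 3, and miR-236, of the miR-200 family, at 0.58 on replicate 3. miR-87 stood at -0.26, 0.17 and 0.74 on replicates 2 to 4. miR-79, a relative of miR-9, stood at 0.12 and -0.37 on replicates 2 and 4. miR-252 had the widest spread of all, at -1.62, 0.05 and 0.64 on replicates 1, 3 and 4, an SD of 1.17. Its mean of -0.31 turned to 0.77 with replicate 1 turned and to -0.74 with replicate 4 turned.

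Of the rest, miR-77 had the lowest p-value, at 0.35 and 1.46 on replicates 2 and 3, above 0 on both and from 1 spot on replicate 2, with a mean of 0.90 ± 0.45 (unadjusted p = 0.0479, adjusted p = 0.902). miR-230 stood at 0.41 and 0.90 on replicates 3 and 4, and its mean of 0.65 turned to -0.25 with replicate 4 turned. miR-70 (-0.95 and -0.09) and miR-86 (-0.65 and -0.10), both on replicates 3 and 4, lay below 0 on both arrays, as did miR-46 (-0.41 and -0.24 on replicates 2 and 3). miR-2 stood at 0.24 and -0.48 on replicates 3 and 4. On replicate 3 alone, miR-47 stood at 1.00, miR-90 at 0.86, miR-233 at 0.50 and miR-50 at 0.30. Of the 21 microRNAs measured on 2 arrays, 12 lay on the same side of 0 on both (57.1%), and none of them passed. With replicate 4 turned the count was 11, of which 7 were above 0 (among them miR-77 and lin-4) and 4 below. By arithmetic, the turn splits every same-side pair that includes replicate 4. That miR-241, miR-83 and miR-230 no longer lay on 1 side is therefore no test of them. A further 7 microRNAs (miR-35, miR-49, miR-59, miR-67, miR-85, miR-232 and miR-234) gave signals on replicate 3 but did not pass the filter on detection.

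Set against the other strains in the same fit, the pdr-1 mutant differed from the alpha-synuclein strain in 1 of 48 microRNAs (2.08%), let-7, and 4 of the 48 (8.33%) had an unadjusted p under 0.05. A dye effect that is the same on all arrays cancels in this contrast, while the strains may share N2 preparations. The let-7 ratios of the alpha-synuclein arrays were -1.89, -3.00 and -0.52, all below the lowest pdr-1 value of -0.47. The mean was 1.76 higher in the pdr-1 mutant (95% interval 0.80 to 2.73, adjusted p = 0.0193), or 3.40-fold. This interval and p rest on the shared SD of 0.64, although the strains differed in spread. The SD between arrays was 0.81 in the alpha-synuclein strain, 0.47 in the pdr-1 mutant and 0.38 in the cat-1 mutant. The shared SD is thus below the spread of the alpha-synuclein arrays. With the sign of pdr-1 replicate 1 or 4 turned, the difference was 1.66 or 1.78 (adjusted p = 0.0374 and 0.0206). miR-241 (1.78, adjusted p = 0.0656), miR-84 (1.10, adjusted p = 0.421) and miR-235 (-1.57, adjusted p = 0.567, with 1 alpha-synuclein array) did not pass. For miR-241 the pdr-1 values of 0.58 and 1.72 lay above the 3 alpha-synuclein values, which ran from -0.89 to -0.30. With replicate 4 turned, the pdr-1 mean of miR-241 was -0.57, beside -0.63 in the alpha-synuclein strain. The let-7 call was lost without pdr-1 replicate 1, 2 or 4 (differences of 1.68, 1.70 and 1.76, adjusted p = 0.0641, 0.101 and 0.0596). It was also lost without alpha-synuclein replicate 1 or 2 (1.72 and 1.17, adjusted p = 0.222 and 0.286). Among other settings, the plain test (1.76, adjusted p = 0.627), the authors' deposited table (1.66, adjusted p = 0.170) and scaling to a common spread (1.19, adjusted p = 0.0847) did not give the call, nor did a signal in 1 channel with an offset (1.72, adjusted p = 0.179).

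**Figure D5:**
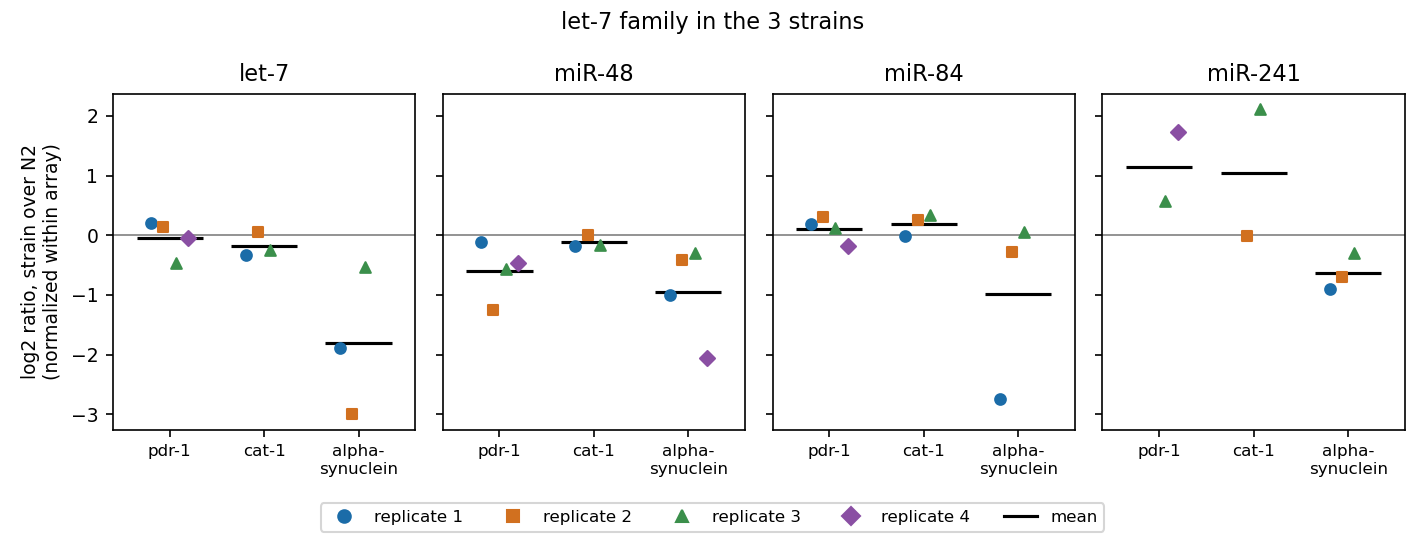
Log2 ratio of each strain over N2 for the 4 members of the let-7 family, by array (points) and mean (bar), in the pdr-1 mutant, the cat-1 mutant and the alpha-synuclein strain. For let-7 the 4 pdr-1 values lie between -0.47 and 0.21 and the 3 alpha-synuclein values between -3.00 and -0.52, while the pdr-1 and cat-1 values overlap for all 4 members.

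The pdr-1 and cat-1 mutants were set against each other over 46 microRNAs. Of these, 0 passed by limma (0%), and before adjustment 0 lay below 0.05 (0%). Replicates 3 and 4 of cat-1 hold the same scanner values spot for spot, so 3 distinct cat-1 arrays entered. The 3 lowest p-values, all with an adjusted p of 0.989, belonged to miR-51, miR-58 and miR-66. miR-58 stood at 0.86, 0.61 and 1.08 on the cat-1 arrays, above all 3 pdr-1 values, and the difference of pdr-1 minus cat-1 was -0.95 (95% interval -1.99 to 0.08). It passed under 1 alternative, the scaling of arrays to a common spread (-1.41, adjusted p = 0.0427). miR-51 stood at -0.30 and -0.80 on 2 cat-1 arrays, and the difference was 0.98 (95% interval -0.18 to 2.13), or 0.30 with replicate 4 turned. With the replicate number as a block in the fit, the difference for miR-51 was -0.08. miR-66 stood at 0.13 and 0.82 on 2 cat-1 arrays, and the difference was -0.98 (95% interval -2.25 to 0.28). It was -0.49 without pdr-1 replicate 3, -1.48 without replicate 4 and -0.64 without cat-1 replicate 3. The cat-1 arrays had 15 to 18 blank spots with a signal, where the pdr-1 arrays had 0 to 3, and the part of this in the differences was not tested.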

How the data were processed

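The authors hybridised NCode 2-colour microRNA arrays with small RNA, per the labels' protocols. The deposited scanner files hold 1 intensity per channel for 4608 spots, per the file headers, and 342 of these are C. elegans spots (3 per probe). No background column is given, and for the scanner software and the flag letters no meaning was given in the sources used here. All C. elegans spots above 0 carried the flag C or S, of which S spots were left out. The log2 ratios in the value table deposited by the authors served as an alternative. On the pdr-1 arrays it equalled log2 of the second over the first signal minus the log2 ratio of the summed signals, and its column medians were 0.20, 0.05, 0.19 and -0.03. It has 0 columns of other samples. The second signal was taken as the mutant because the labels list the mutant as channel 2.

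Within each array, a loess curve through the C. elegans spots (span 0.3, 4 iterations) was subtracted and spots were averaged per probe. In all, 50 probes were detected on 4 or more of 11 distinct arrays and were fitted in R 4.3.3 with limma 3.58.1, with 1 mean per strain and 1 spread for all, two-sided, with Benjamini-Hochberg adjustment at 0.05. The moderated SD was the same for every microRNA. Intervals rest on that SD, and the number of arrays limits the precision. The labels give separate worm populations as replicates. The model fit alone was tested on simulated log2 ratios, while the normalization, the flags and the averaging of spots were not simulated. Neighbouring genes (within 10 kb) came from the WBcel235 gene table, where 109 of 115 names matched. No sequences are shown.

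MicroRNAs named were the lowest 25 p-values, those with ratios on 4 arrays, those with a signal in 1 channel only, and members of the named families and lists. For contrasts these were the calls, or the 3 lowest p-values. The others were added after their values were seen. The comparison, lists and tests were chosen with earlier results of these data known. The lists carry no test and are given as counts and medians. Alternatives concerned normalization, offsets, flags, averaging, filters, the model, a replicate block, the turned sign of an array, the deposited table, thresholds and each array left out.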

Additional observations from a re-analysis of the deposited data

Results flagged for a closer look

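The let-7 difference between the pdr-1 mutant and the alpha-synuclein strain, 1.76 on the log2 scale (adjusted p = 0.0193 by limma), was picked out because the effects of these strains against N2 differed by a test of the difference itself.

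Probes named by a number, which the comparisons do not use and the files do not tie to a microRNA, gave a mutant signal at 20, 25, 56 and 34 of 2817 spots on replicates 1 to 4. Blank spots gave 0, 3, 0 and 0 signals of 1059 on the same arrays, and the N2 channel gave 21, 24, 58 and 34 signals at the numbered probes. No sample stood apart by Dixon's criterion in the 19 sets of 4 arrays examined, of which chance would flag about 1 in 20.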

How the results depend on the processing

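Against N2, 31 of 32 settings gave 0 calls at an adjusted p of 0.05. The exception was the scaling of arrays to a common spread, which gave 1, miR-241, and a threshold on unadjusted p gave 2. Without normalization 24 microRNAs had an unadjusted p under 0.05 and 0 passed. The sign of the mean held for 39 of 48 microRNAs over 8 ways of normalizing or treating spots. These 8 are not independent, as the deposited table is itself centred on summed signals, which is another of them. Leaving out 1 array moved 34 of the 38 means that rest on several arrays by over 1.5 times or turned their sign.

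Against the alpha-synuclein strain, the single call (let-7) became 0 without normalization, with an offset of 50 and a signal in 1 channel enough, with the plain test, with the deposited value table and without pdr-1 arrays 1 and 4 together, the last added after seeing the data. Leaving out 1 array gave 0 to 1 calls. With scaling to a common spread, let-7 lost its call at 1.19 (adjusted p = 0.0847) and miR-241 gained one. Array weights and an adjusted p of 0.1 each gave 2 calls, and a threshold on unadjusted p gave 4. Against the cat-1 mutant, scaling to a common spread gave 1 call, miR-58. The causes were not tested. The turned sign of replicate 1 or 4 left all 3 counts as they were.

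Same-numbered arrays of different strains deviated together, with a correlation over 0.1, in 1 of 10 pairs, with a median of -0.146. The deviations were taken from strain means over few arrays, so they cannot tell whether same-numbered arrays shared an N2 preparation or a batch. A replicate block gave 0 calls against N2 among the 32 microRNAs it could estimate, and 1 call, let-7 (adjusted p = 0.0310), against the alpha-synuclein strain. The number of arrays and the low share of probes with a signal limit the precision.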
